A study of Mus musculus with 27 samples.

Results

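To find which genes of forskolin-pulsed fibroblasts were still away from the pulse state after 2 days in serum-free medium, and which had come back, the 3 arrays of cells harvested at 48 h were set against the 3 arrays of cells harvested at 0 h, the end of the pulse. These 6 arrays, paired by experiment number, were chosen by their time labels from 27 arrays in 9 time points. All cultures were NIH/3T3, an established line of mouse embryonic fibroblasts. Each culture went from 5% fetal bovine serum into serum-free medium with 15 µM forskolin for 2 h, and was then rinsed and left in serum-free medium. The cells of the 0 h group were collected at the end of those 2 h, and the cells of the 48 h group after 48 h more without forskolin or serum. Both groups therefore had the pulse and the loss of serum. The 0 h arrays also carry any response of the first hours to forskolin, so a difference at 48 h is a change since the pulse and not a change from untreated cells. Cultures without forskolin, or kept in serum, were not analysed here, so the end of the forskolin signal and the lasting lack of serum cannot be told apart. The labels call the 3 experiments biological replicates and the harvested units individual flasks.

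Forskolin activates adenylyl cyclase, the enzyme that makes cyclic AMP. Cyclic AMP frees protein kinase A, which phosphorylates the transcription factor CREB, and CREB switches on genes within an hour or so, among them many whose products damp the signal again, such as phosphodiesterases, RGS proteins and the repressor ICER made from Crem. Serum supplies fibroblasts with growth factors and lipids that keep them dividing, hold up actin genes through serum response factor (SRF), and feed ribosome synthesis. Fibroblasts left without serum leave the cell cycle and enter quiescence, a state in which they remain alive and can make much matrix protein.

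The cells matched their label: of 15 fibroblast markers 14 were measured, with Col1a1 and Col1a2, the chains of type I collagen, among the brightest. Their summed intensity was 136994 to 148142 on the 0 h arrays and 161797 to 179883 on the 48 h arrays, with 5 markers higher at 48 h (Lum, Col3a1, Dcn, Pdgfrb and Pdgfra) and Thy1 lower. Markers of other cells that were on the array were mostly under the intensity filter. It was passed by 12 of 27 muscle, 10 of 23 neuron and glia, 9 of 25 leukocyte, 3 of 19 endothelial and epithelial, and 4 of 14 adipocyte and chondrocyte markers. Of these, the muscle actin Actc1, the surface protein Thy1 and the lysosomal protein Cd68 were lower at 48 h. The others did not pass the test, and Cd68 did not with any experiment left out. The summed intensity was 2301 to 2714 at 0 h and 1910 to 2110 at 48 h for the muscle list, and 10506 to 11416 and 6924 to 8014 for the neuron and glia list, which shares Thy1 with the fibroblasts. What other cells might add to the results was not tested. The 6 arrays had median intensities of 166.8 to 190.3 and 3′ to 5′ ratios of the actin control of 1.29 to 1.70. Experiment 1 stood apart from experiments 2 and 3 on the first principal component of the 27 arrays, which carried 28.7% of their variance.

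Values below are log2(intensity + 12.1) after quantile normalization, on which 1 unit is a factor of 2, given in the order of experiments 1, 2 and 3. Differences are 48 h minus 0 h ± SE with n = 3 arrays a group. The SE and the adjusted p-values come from 1 limma fit over all 27 arrays, with a term for the experiment. The Benjamini-Hochberg adjustment was over 7453 probe sets. A gene is represented by its brightest probe set and is called where the adjusted p is below 0.05.

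Of 5643 genes, 639 were higher at 48 h than at 0 h and 535 were lower, which is 11.3% and 9.48% of the genes tested and 20.8% in both directions. Over probe sets, 799 were higher (10.7%) and 676 lower (9.07%). The median of the higher genes was 0.66 and of the lower genes -0.65, with 124 higher and 146 lower by 1 or more, and 15 higher and 21 lower by 2 or more. The median over all genes was 0.00, a value that quantile normalization largely fixes, so a shift common to all genes could not show. In 1268 genes, or 22.5%, the 3 arrays of one group all lay above the 3 of the other. In bulk RNA of this kind, fewer cells of a type and less RNA per cell cannot be told apart. These counts rest on pairing the arrays by experiment: without the experiment term 280 genes were higher and 187 lower, and with experiments 1, 2 or 3 left out in turn 551, 378 and 344 genes were higher and 443, 303 and 260 lower.

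The distance from the pulse state, taken as the root mean square of the log2 differences from the 0 h array of the same experiment over all probe sets kept, was 0.53 ± 0.04 (SD, n = 3 experiments) at 6 h and 0.60 ± 0.03 at 48 h, with 0.60 ± 0.02 at 18 h and 0.57 at 24 h. The distance also holds the noise of single arrays. No later time lay closer to the pulse state than 6 h did. Among genes called at 48 h, a comparison of 48 h with 6 h placed 193 of the 639 higher genes further up, 22 back down and 424 with no call, and 209 of the 535 lower genes further down, 11 back up and 315 with no call. This comparison shares the 48 h arrays with the one that chose the genes, so the split is a description.

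No gene dropped further than Vdr, which encodes the nuclear receptor for vitamin D. Its levels were 12.52, 11.54 and 11.70 at 0 h and 7.81, 6.67 and 7.36 at 48 h, a difference of -4.64 ± 0.27 (adjusted p = 3.76e-11), and a dimmer probe set gave -3.71. Every 0 h array lay far above every 48 h array, and most of the drop was there at 6 h (-4.30). Tnc, which encodes the matricellular protein tenascin C, had levels of 10.73, 10.79 and 10.79 at 0 h and 6.76, 7.51 and 6.98 at 48 h, a difference of -3.69 ± 0.20 (adjusted p = 1.91e-11). In contrast to Vdr its fall at 6 h was smaller, at -1.53. Ramp3, which encodes a partner protein of calcitonin-type receptors, went from 12.53, 11.88 and 11.59 to 9.41, 8.51 and 9.04 (-3.01 ± 0.23, adjusted p = 2.57e-09).

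Acta2 and Tagln, the smooth muscle actin and its binding protein transgelin, fell by 3.51 and 2.93 and are described with the actin genes. Srxn1, which encodes sulfiredoxin, a repair enzyme of peroxiredoxins, had 11.41, 10.93 and 11.26 at 0 h and 8.06, 8.03 and 8.46 at 48 h (-3.01 ± 0.19, adjusted p = 7.90e-11), whereas its dimmer probe set gave -0.00 (adjusted p = 0.998). Dgat1, the enzyme of the last step of triglyceride synthesis, had 12.06, 11.70 and 11.25 at 0 h and 8.89, 8.89 and 8.58 at 48 h (-2.89 ± 0.16, adjusted p = 1.91e-11). In both genes the groups lay apart on every array. Pnp, a purine salvage enzyme, had 12.96, 12.98 and 12.86 at 0 h and 10.76, 10.59 and 10.18 at 48 h (-2.42 ± 0.21, adjusted p = 1.92e-08), again with no overlap. Gfpt2, an enzyme that feeds the hexosamine pathway, fell by 2.41 ± 0.47 (adjusted p = 6.11e-04) to a mean under 6.77, the lowest mean that passed the intensity filter, so its fold is open to background. Bcl3, an IkB-type coregulator of NF-kB, went from 10.45, 10.33 and 10.31 to 6.44, 8.68 and 9.02 (-2.32 ± 0.47, adjusted p = 0.001). Its 48 h level was lowest in experiment 1, and without that experiment the difference was -1.47 (adjusted p = 0.0708).

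The largest rise was that of Dpt, which encodes dermatopontin, a small matrix protein that binds collagen and decorin. Its levels were 7.26, 6.46 and 6.48 at 0 h and 11.01, 10.04 and 10.29 at 48 h, a difference of 3.72 ± 0.30 (adjusted p = 6.02e-09). At 6 h the difference was 0.30 (adjusted p = 0.564), so that the rise came later than the fall of Vdr. Spsb1, an adaptor of a ubiquitin ligase, had 6.88, 7.5 and 7.15 at 0 h and 10.45, 10.01 and 10.00 at 48 h (2.98 ± 0.19, adjusted p = 1.18e-10), and its other probe set gave 2.87. Apod, which encodes the secreted lipid carrier apolipoprotein D, had 8.54, 5.03 and 6.57 at 0 h and 10.57, 9.04 and 9.21 at 48 h (2.89 ± 0.28, adjusted p = 9.46e-08). The 48 h arrays of all 3 genes lay above the 0 h arrays, with experiment 1 the highest at both times for Apod.

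Clec3b, the secreted lectin tetranectin, had 10.29, 7.21 and 7.19 at 0 h and 11.57, 10.58 and 10.69 at 48 h (2.71 ± 0.28, adjusted p = 2.90e-07). Nbl1, an antagonist of bone morphogenetic proteins, had 7.06, 7.82 and 9.25 at 0 h and 10.42, 10.28 and 10.28 at 48 h (2.28 ± 0.30, adjusted p = 7.42e-06). For Nbl1 the spread between experiments at 0 h was wide and at 48 h narrow. Angptl4, a secreted inhibitor of lipoprotein lipase, had 8.57, 8.21 and 8.59 at 0 h and 10.74, 10.54 and 10.85 at 48 h (2.25 ± 0.19, adjusted p = 8.75e-09), while 2 dimmer probe sets gave 1.33 and -0.88. Mest, an imprinted gene of the hydrolase fold family, rose by 2.32 ± 0.16 (adjusted p = 4.68e-10). Ifi30, a lysosomal thiol reductase, had 7.56, 7.91 and 7.18 at 0 h and 9.96, 9.85 and 9.18 at 48 h (2.11 ± 0.28, adjusted p = 8.15e-06). All 48 h arrays of these 5 genes were above all 0 h arrays.

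Klf4, a zinc finger factor linked to growth arrest, had 11.06, 9.09 and 9.43 at 0 h and 12.29, 11.41 and 11.95 at 48 h (2.02 ± 0.23, adjusted p = 9.34e-07), with -0.31 at 6 h. Its relative Klf13 had 8.21, 5.86 and 6.60 at 0 h and 9.18, 8.88 and 9.72 at 48 h (2.37 ± 0.34, adjusted p = 1.64e-05), and its other probe set gave 1.88. Both had their highest 0 h level in experiment 1. Nfia, a nuclear factor I protein, went from 6.66, 4.34 and 5.09 to 7.49, 7.74 and 7.88 (2.34 ± 0.37, adjusted p = 7.32e-05), and its second probe set had 0.96 (adjusted p = 0.232). Txnip, a thioredoxin-binding protein that limits glucose uptake, had 8.59, 10.84 and 10.97 at 0 h and 12.03, 12.43 and 12.19 at 48 h (2.08 ± 0.29, adjusted p = 1.17e-05). It was up by 2.38 at 6 h already and stayed there, but another Txnip probe set gave 0.12 (adjusted p = 0.653) at 48 h. Hivep2, Traf5 and Tec, a zinc finger factor, a TNF receptor adaptor and a tyrosine kinase, rose by 2.54 ± 0.26, 2.22 ± 0.22 and 2.01 ± 0.23. The 0 h means of Dpt, Apod, Hivep2, Nfia and Tec were under 6.77, so their folds are open to background as well.

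**Figure D1:**
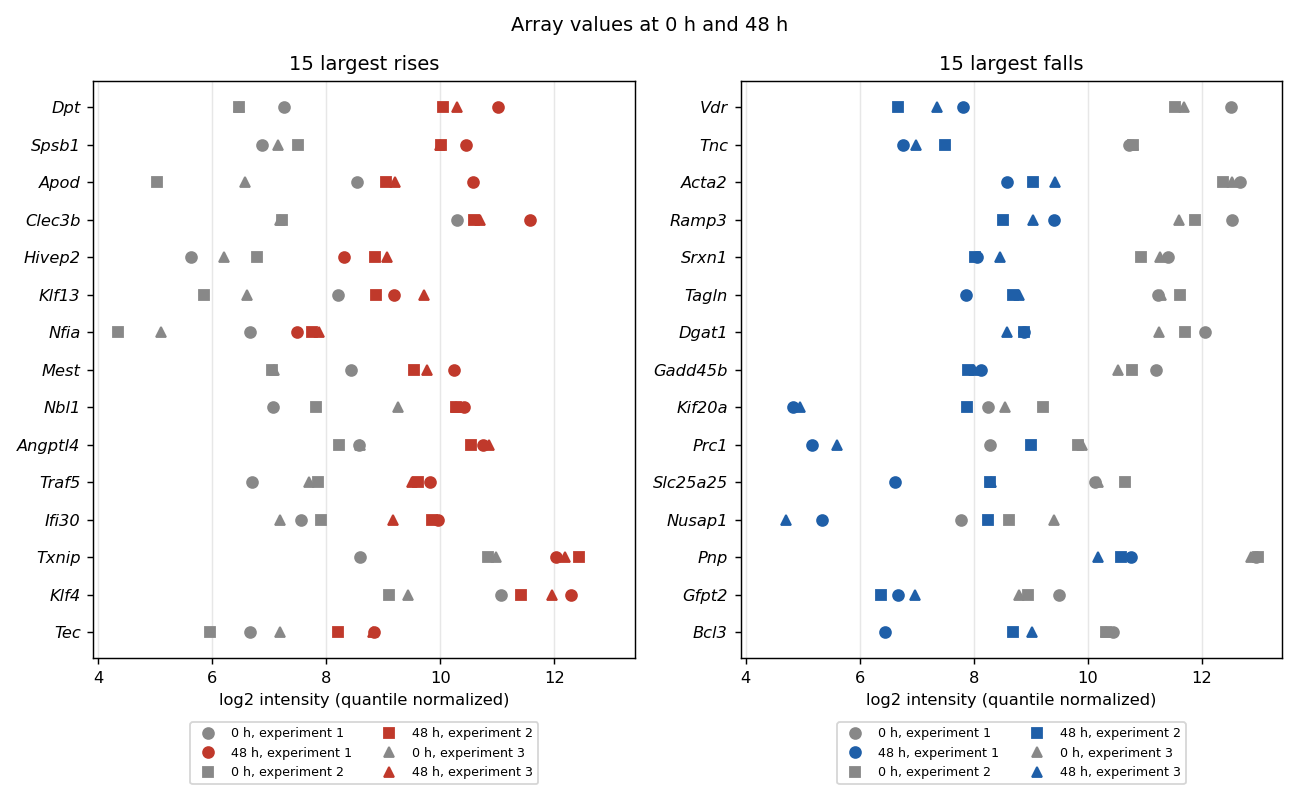
Log2 intensities of the 15 genes with the largest rises (left, red at 48 h) and the 15 with the largest falls (right, blue at 48 h), with 0 h in grey and 1 symbol shape per experiment. The groups lie apart in most genes, while the 48 h array of experiment 2 stays near the 0 h arrays in the mitotic genes Kif20a, Prc1 and Nusap1.

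To sort the genes by whether they came back, a gene was taken as having left on the first day if it was called in 1 direction at 2 or more of 6, 12, 18 and 24 h against 0 h, and in the other direction at none of them. At these times 18%, 21.7%, 21% and 19.8% of all genes were called, and 1272 genes had left by the rule. Of these, 787, or 61.9%, were still called in the same direction at 48 h, 445 above and 342 below the pulse state. A gene was counted as back if it was not called at 48 h, if its move between the first-day mean and 48 h was called in the opposite direction (a move called in 10.8% of all genes), and if its difference at 48 h was under 0.5 of its first-day mean difference. That held for 117 genes, or 9.2%, of which 65 had first risen and 52 had first fallen. A further 363 were neither called at 48 h nor counted as back, and 5 were called on the other side of the pulse state. Another 239 genes were called at 48 h and at no first-day time. All these calls share the 0 h arrays, so that a chance deviation of 1 array at 0 h moves every class, and the counts describe the rule's outcome without a test.

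The count of genes that came back depended most on the block and on the experiments included. In the fit that lacks the experiment term 14 genes were back, and leaving out experiment 1, 2 or 3 gave 86, 26 and 4. The rule used no difference at 30 h or 42 h, though the arrays of both times entered the estimate of spread behind its calls. Between 30 h and 42 h, 60 of the 65 genes that had risen moved down, with a median of -0.19. Of the 52 that had fallen 43 moved up, with a median of 0.19, beside a median of -0.01 over all genes. None of the 117 was called by limma between 30 h and 42 h, where 8 genes of all, or 0.142%, were called. At an unadjusted p below 0.05, 20 of the 65 had moved down and 17 of the 52 up, beside 5.55% of all genes down and 5.25% up. These p-values use the same estimate of spread as the rule, so the counts are a description and not an independent check.

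Not passing a test does not show that a gene is back, so the intervals at 48 h are given. The rule asked for a small difference at 48 h, so small medians there follow in part from the choice of genes. A limit of ±0.5 is also about the size of the median first-day differences, so an interval inside it does not show a full return. For the 65 genes that had risen, with a median first-day difference of 0.50, the median at 48 h was 0.10, and the 95% interval lay within ±0.5 in 54 and within ±1 in all 65. For the 52 that had fallen, with a median first-day difference of -0.56, the median at 48 h was -0.06, and the interval lay within ±0.5 in 36 and within ±1 in 51.

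Of the genes that came back after a fall, the 10 with the largest first-day differences are given here and in the next paragraph, not in order of size. Hk2, a hexokinase that starts glycolysis, had 10.17, 8.12 and 8.11 at 0 h, 6.92, 7.21 and 6.92 at 6 h, 10.25, 8.73 and 8.25 at 42 h and 9.35, 8.53 and 8.64 at 48 h. The 48 h arrays lay among the 0 h arrays, and the difference was 0.04 ± 0.38, with a 95% interval from -0.75 to 0.83. The first-day mean difference of -1.31 was largest in experiment 1 and was -0.66 (adjusted p = 0.046) without it. Hmox1, the heme-degrading enzyme heme oxygenase 1, had 12.42, 12.03 and 12.22 at 0 h, 11.02, 11.15 and 11.49 at 6 h and 12.15, 11.92 and 12.68 at 48 h (0.03 ± 0.24, interval -0.48 to 0.53). Nop56, a core protein of the ribosomal RNA methylation complex, had 9.90, 9.86 and 9.58 at 0 h, 8.42, 8.68 and 8.11 at 6 h and 9.23, 9.78 and 9.38 at 48 h (-0.31 ± 0.19, interval -0.72 to 0.09). For Hmox1 and Nop56 all 6 h arrays lay under all 0 h and 48 h arrays. Manf, a secreted protein of the endoplasmic reticulum stress response, had 10.57, 9.81 and 10.02 at 0 h, 9.77, 9.02 and 8.79 at 6 h and 10.24, 9.83 and 9.95 at 48 h (-0.12 ± 0.15, interval -0.44 to 0.20).

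Others of this kind had first-day mean differences from -1.32 to -0.85: Cdr2, Gmppb (an enzyme that makes GDP-mannose), Nme1 (a nucleoside diphosphate kinase), Fam91a1, Sash1 and Lrrc59. Their differences at 48 h ran from -0.41 for Fam91a1 to -0.10 for Sash1. The interval of Lrrc59, from -0.66 to -0.01, left out 0, so it was back by the rule and yet lower in its unadjusted interval. Without the experiment term the first-day difference of Sash1 did not pass (adjusted p = 0.0902), nor did that of Nme1 without experiment 3 (adjusted p = 0.0672). A dimmer Nme1 probe set had a first-day difference of 0.13 (adjusted p = 0.669), so it did not show the fall. In experiment 1 the fall of Cdr2 was not undone in full, with 8.36 at 0 h and 7.64 at 48 h, while experiments 2 and 3 gave 8.16 and 7.92 at 0 h and 8.06 and 7.84 at 48 h.

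Genes that came back after a rise moved less, with first-day mean differences up to 0.96. That highest value belonged to Chchd5, a protein of the mitochondrial intermembrane space, with 7.15, 7.54 and 8.07 at 0 h, 8.80, 8.85 and 9.14 at 6 h and 7.52, 8.22 and 7.47 at 48 h (0.15 ± 0.21, interval -0.29 to 0.59). Its 6 h arrays were above all others, and its 48 h and 0 h arrays overlapped. Plac1, Zfp524, Fmn1 (the actin nucleator formin 1), Bphl, Anapc16 (a subunit of the anaphase-promoting complex), Cd1d1, Slc29a1 (a nucleoside transporter), Tapbp (tapasin, which loads peptides on MHC class I) and Stk11ip had first-day differences between 0.87 and 0.69 and differences at 48 h from 0.11 for Stk11ip to 0.34 for Bphl, whose 3 other probe sets ran from -0.36 to 0.53. The intervals of Bphl (0.05 to 0.63) and Slc29a1 (0.01 to 0.56) left out 0, and another Tapbp probe set was called at 48 h (0.42, adjusted p = 0.011). Without the experiment term the first-day rises of Plac1 and Stk11ip did not pass (adjusted p = 0.155 and 0.174), nor did that of Cd1d1 without experiment 2 (0.0756).

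**Figure D2:**
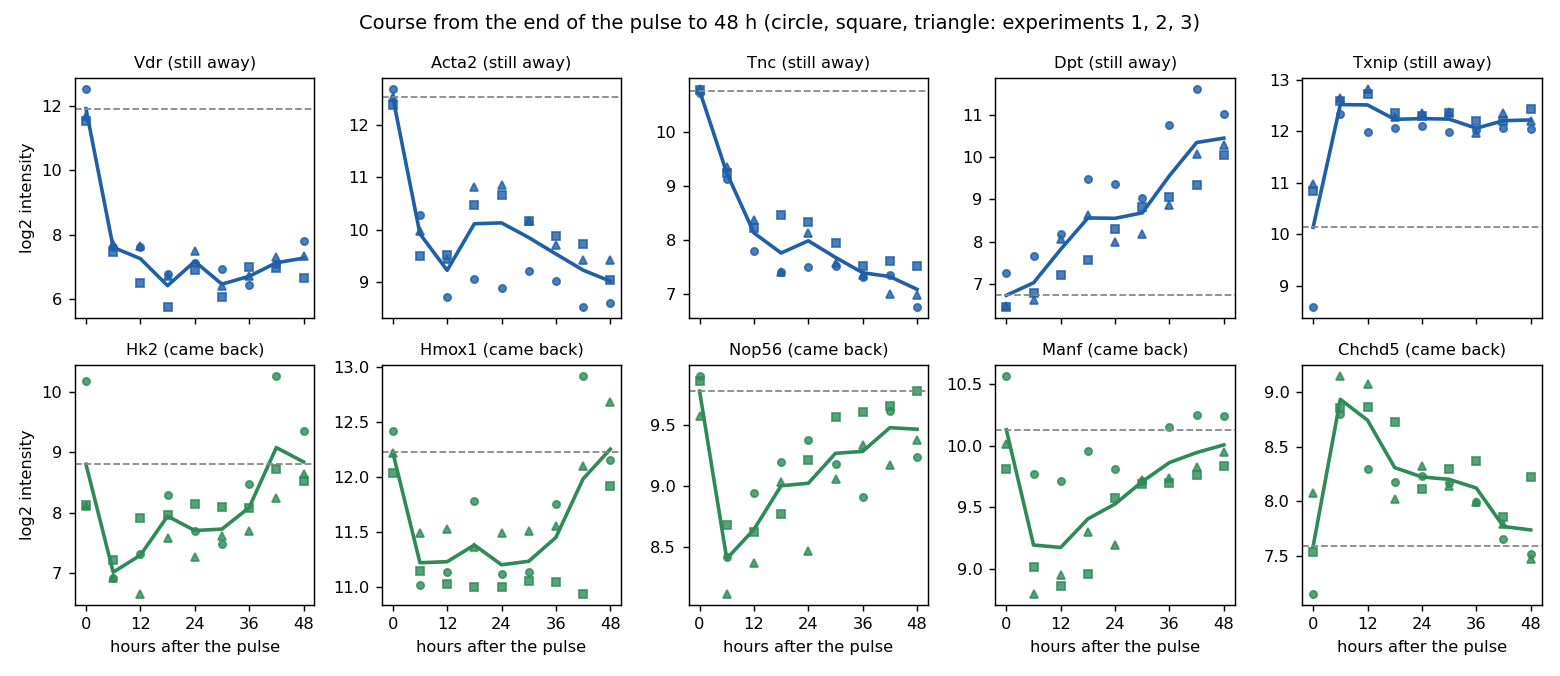
Log2 intensity against hours after the pulse for 5 genes still away at 48 h (blue) and 5 that came back (green), with the line at the mean of 3 experiments, symbols for single arrays and the dashed line at the 0 h mean. Vdr is down by 6 h and stays down, Tnc falls step by step and Dpt climbs over the first day, whereas Hmox1, Nop56 and Manf dip at 6 h and lie near the dashed line again at 48 h.

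Of 40 genes that cyclic AMP and CREB turn on 24 were measured. At 48 h 13 were lower, 1 was higher and 10 did not pass, beside 9.48% lower and 11.3% higher of all genes. The median difference was -0.91, close to the -1.11 of 6 h, where 14 of the 24 were lower, beside 7.07% lower and 11% higher of all genes at that time. The shares of all genes at both times apply to every list below as well. By experiment the median was -1.10, -0.81 and -0.57. In the comparison of 48 h with 6 h, 5 of the 24 were higher and 5 lower, beside 7.21% and 8.59% of all genes. Hk2 was the only one of the 24 that met the rule for coming back.

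Among the signal's own brakes, Rgs2, which shuts off G protein alpha subunits, had 11.00, 9.97 and 10.35 at 0 h and 8.56, 8.08 and 8.08 at 48 h (-2.20 ± 0.22, adjusted p = 1.26e-07). Pde4b, a phosphodiesterase that degrades cyclic AMP, had 9.13, 9.12 and 9.28 at 0 h and 8.52, 7.52 and 7.99 at 48 h (-1.17 ± 0.21, adjusted p = 2.65e-04). Crem, the gene of the repressor ICER, had 9.03, 7.71 and 7.66 at 0 h and 7.03, 6.89 and 6.57 at 48 h (-1.30 ± 0.29, adjusted p = 0.00203). No array of 48 h reached an array of 0 h in these 3 genes, though a dimmer Crem probe set had -0.64 (adjusted p = 0.315).

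Among targets with other roles, Gadd45b, a stress response protein, had 11.20, 10.77 and 10.54 at 0 h and 8.13, 7.91 and 8.0 at 48 h (-2.82 ± 0.27, adjusted p = 1.04e-07), and its other probe set gave -1.59. Slc25a25, a mitochondrial ATP-magnesium carrier, had 10.13, 10.66 and 10.18 at 0 h and 6.62, 8.29 and 8.30 at 48 h (-2.59 ± 0.31, adjusted p = 2.48e-06). Both stayed apart from their 0 h arrays in all experiments. Nfil3, a basic leucine zipper repressor, fell by 1.80 ± 0.25 (adjusted p = 1.56e-05) and the neurotrophin Bdnf by 1.77 ± 0.25 (adjusted p = 1.43e-05). Of the C/EBP factors, Cebpb went from 12.91, 12.30 and 12.22 to 10.90, 11.14 and 11.82 (-1.19 ± 0.21, adjusted p = 2.50e-04), and Cebpd fell by 0.95 ± 0.17 (adjusted p = 2.40e-04) after being down by 1.76 at 6 h. Without experiment 1 the fall of Cebpb was 0.78. Its drop in experiment 1 was the largest of the 3. Has2, the hyaluronan synthase, was lower by -0.86, but without experiment 1 by -0.45 (adjusted p = 0.0718).

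Adm, which encodes the vasodilator peptide adrenomedullin, was the list's only riser, from 6.21, 6.37 and 4.74 to 8.11, 7.11 and 7.39 (1.77 ± 0.41, adjusted p = 0.00289). Its 0 h values were all under 6.77, the lowest mean that passed the intensity filter, so its fold is open to background. Without experiment 3, which held its lowest 0 h value, the difference was 1.32 (adjusted p = 0.105). Dusp1, a MAP kinase phosphatase, had -1.43 at 6 h and 0.56 ± 0.32 at 48 h (adjusted p = 0.246), and the clock gene Per1 had 0.57 ± 0.29 (adjusted p = 0.187). The orphan receptor Nr4a1 had -1.13 ± 0.42 at 48 h (adjusted p = 0.0616). None of these 3 passed at 48 h in either direction.

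The immediate early genes, a list of AP-1, Egr, Klf and related factors that partly overlaps with the CREB targets, had 23 of 36 genes measured, of which 7 were higher and 3 lower at 48 h, with a median of 0.35, where 6 h had given 2 higher, 4 lower and a median of -0.20. In the comparison of 48 h with 6 h, 8 of the 23 were higher and 1 was lower, beside 7.21% and 8.59% of all genes. Jun, the AP-1 subunit, had 9.74, 8.75 and 8.86 at 0 h and 10.93, 10.29 and 10.46 at 48 h (1.44 ± 0.16, adjusted p = 6.11e-07), with 0.10 at 6 h. Klf6, a zinc finger factor, had 9.05, 8.98 and 8.66 at 0 h and 10.36, 9.98 and 10.49 at 48 h (1.38 ± 0.13, adjusted p = 9.89e-08), with 1.09 at 6 h. For both, all 48 h arrays were above all 0 h arrays.

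The other AP-1 subunits went the opposite way or did not pass. Junb, which can oppose Jun, went from 10.45, 9.62 and 9.81 to 9.35, 8.82 and 9.14 (-0.86 ± 0.19, adjusted p = 0.00217), and it had been down by 1.08 at 6 h. Fosl1 was lower by -1.59 ± 0.44 (adjusted p = 0.0122), less than the -2.97 of 6 h, but did not pass without experiment 1 (-0.99, adjusted p = 0.167), without experiment 3 (0.0906) or without the experiment term (0.172). Fos had 0.90 ± 0.48 (adjusted p = 0.212) and Fosb -0.11. Egr1, a zinc finger factor induced by many stimuli, was higher by 1.07 ± 0.29 (adjusted p = 0.0095) with overlapping arrays, and did not pass without experiment 3 (1.05, adjusted p = 0.126). Egr2, Ier2 and Btg2 were called higher as well but lost the call without experiment 2 and without experiment 3 (adjusted p from 0.0925 for Egr2 to 0.427 for Ier2), and Gem, a small GTPase that was called lower, did so too (adjusted p = 0.0706 and 0.0526). Myc had -0.23 ± 0.30 and Atf3 0.81 ± 0.32 (adjusted p = 0.0774). With experiments 1, 2 or 3 left out the list gave 9, 4 and 3 higher and 3, 2 and 1 lower genes.

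Of the parts of the cyclic AMP and G protein machinery itself, 39 of 62 genes were measured, with 5 higher, 7 lower and a median of 0.03. Agtr2, the type 2 angiotensin receptor, had 10.73, 10.46 and 8.81 at 0 h and 11.99, 12.43 and 11.39 at 48 h (1.94 ± 0.19, adjusted p = 1.24e-07), with 0.00 at 6 h. Akap12, a scaffold that holds protein kinase A, had 9.22, 7.80 and 8.73 at 0 h and 10.61, 10.65 and 10.05 at 48 h (1.85 ± 0.32, adjusted p = 1.44e-04). The arrays of both genes lay apart by group. Rgs3 rose by 1.53 ± 0.18 while its relative Rgs2 fell, and Ramp2 rose by 1.49 ± 0.19 while its relative Ramp3 fell by 3.01. The proteins of both genes turn the calcitonin receptor-like receptor into a receptor for adrenomedullin. In the list of MAP kinase phosphatases and feedback inhibitors, 10 of 20 genes were measured, 5 were lower at 6 h, beside 7.07% of all genes. At 48 h 2 of the 10 were called, beside 20.8% of all genes: Rgs2 was lower and Spred2 higher. Spred2 did not pass without experiment 2 or 3 (adjusted p = 0.139 and 0.0625).

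Of 41 genes of the actin cytoskeleton, many of them targets of SRF, 30 were measured. At 48 h 14 were lower, 2 higher and 14 did not pass, with a median of -0.35, beside 9.48% lower and 11.3% higher of all genes. At 6 h 12 were lower and 4 higher, with a median of -0.34, beside 7.07% and 11% of all genes. The smooth muscle actin Acta2 had 12.67, 12.38 and 12.53 at 0 h and 8.59, 9.04 and 9.42 at 48 h (-3.51 ± 0.33, adjusted p = 5.90e-08), with -2.61 at 6 h. Tagln had 11.24, 11.62 and 11.29 at 0 h and 7.87, 8.70 and 8.80 at 48 h (-2.93 ± 0.17, adjusted p = 3.16e-11), with only -0.74 at 6 h. Both kept their groups well apart, with the lowest 48 h level in experiment 1.

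Csrp2, a LIM protein of smooth muscle, had 13.32, 13.31 and 13.16 at 0 h and 11.35, 11.41 and 11.05 at 48 h (-1.99 ± 0.18, adjusted p = 4.20e-08). Actc1, the cardiac actin, had 9.56, 9.25 and 9.44 at 0 h and 7.44, 7.95 and 7.24 at 48 h (-1.87 ± 0.31, adjusted p = 9.94e-05). These too had no overlap. Actg2, Csrp1 and Tpm4, a further smooth muscle actin, a LIM protein and a tropomyosin, fell by 1.20 ± 0.16, 0.95 ± 0.17 and 0.88 ± 0.11. Cytoplasmic beta-actin, Actb, had 12.59, 12.08 and 12.31 at 0 h and 10.98, 11.43 and 11.87 at 48 h (-0.90 ± 0.19, adjusted p = 0.00109), or -0.54 (adjusted p = 0.0422) without experiment 1, while gamma-actin, Actg1, had -0.07. Falls of Myl9 (-0.76), Cnn2 (-0.68), Vcl (-0.37), Cfl1, Tagln2 and Tpm1 lost the call in at least 1 leave-out, with adjusted p = 0.245 and 0.101 for Myl9 without experiments 1 and 3, 0.0694 for Cnn2 without experiment 3, 0.204 and 0.194 for Vcl without experiments 2 and 3, 0.0557 for Cfl1 without experiment 2, 0.131 for Tagln2 without experiment 3, and 0.0927 and 0.258 for Tpm1 without experiments 1 and 2. The count of lower genes was 9 of 30 without the experiment term.

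SRF binds a short AT-rich element called the CArG box. It was searched on both strands of RefSeq promoters (GRCm38.p6), from 250 bases before to 50 after each start site, which were at hand for 4569 of the 5643 genes. A CArG box was in 80 of these, or 1.75%, in 2.49% of the promoters of lower genes and in 1.92% of those of higher genes. Of the actin genes that were lower and had a promoter in the table, 4 of 10 held one, and they are shown here because their genes are among the falls just described. Each sequence gives the 250 bases before the start site in the direction of the gene, with the box in capitals. Actc1 lies at chr2:114052876-114053125 (minus strand), Cnn2 at chr10:79988350-79988599 (plus), Myl9 at chr2:156775214-156775463 (plus) and Vcl at chr14:20929148-20929397 (plus).
Actc1: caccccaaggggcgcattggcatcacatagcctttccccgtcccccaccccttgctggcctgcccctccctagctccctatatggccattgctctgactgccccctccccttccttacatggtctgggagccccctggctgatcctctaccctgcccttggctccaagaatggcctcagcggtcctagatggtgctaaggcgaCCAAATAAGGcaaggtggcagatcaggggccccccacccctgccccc
Cnn2: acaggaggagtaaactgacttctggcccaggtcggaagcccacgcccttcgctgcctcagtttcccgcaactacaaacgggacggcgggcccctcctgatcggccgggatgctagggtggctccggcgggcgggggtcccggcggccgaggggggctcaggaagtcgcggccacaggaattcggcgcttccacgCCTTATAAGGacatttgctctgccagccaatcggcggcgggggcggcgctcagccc
Myl9: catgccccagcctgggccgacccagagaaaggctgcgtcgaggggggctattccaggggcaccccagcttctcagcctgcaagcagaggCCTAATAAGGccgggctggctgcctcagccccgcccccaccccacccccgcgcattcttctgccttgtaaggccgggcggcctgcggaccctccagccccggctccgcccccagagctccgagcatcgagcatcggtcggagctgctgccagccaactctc
Vcl: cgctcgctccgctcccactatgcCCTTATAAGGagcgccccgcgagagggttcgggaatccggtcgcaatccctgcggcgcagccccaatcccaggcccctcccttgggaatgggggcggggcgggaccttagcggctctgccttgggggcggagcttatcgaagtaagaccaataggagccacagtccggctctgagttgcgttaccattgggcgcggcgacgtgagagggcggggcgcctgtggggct
The first base of the box lay 47 bases before the start site in Actc1, 56 in Cnn2, 161 in Myl9 and 227 in Vcl. The window of Acta2 held no match to the box as searched. A match is a description of letters, and no binding was measured.

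The full cyclic AMP response element, TGACGTCA, was in 3.37% of all promoters, 3.39% of those of lower genes and 3.26% of those of higher genes, and its shorter core TGACG, which every full site contains, in 36.9%, 41.2% and 30.7%. Among the lower genes of the CREB target list, 6 of the 9 with a promoter, or 66.7%, held the shorter core, and 1 of the 9 held a full element. A gene counted if any of its start sites held a match, and Bdnf, Pde4b and Slc25a25 had several start sites. More start sites give more room for a short match, so 66.7% and 36.9% may not be on equal terms. The gene with the full element was Slc25a25, at 1 of its 3 start sites, chr2:32424067-32424316 (minus strand). The element, in capitals, begins 150 bases before the start.
Slc25a25: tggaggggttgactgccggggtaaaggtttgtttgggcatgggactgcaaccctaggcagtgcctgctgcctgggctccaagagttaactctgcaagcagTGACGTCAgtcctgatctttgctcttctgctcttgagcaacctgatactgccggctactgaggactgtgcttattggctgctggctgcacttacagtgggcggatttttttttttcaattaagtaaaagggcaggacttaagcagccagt
The shares of full sites in higher, lower and all genes thus lay between 3.26% and 3.39%.

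Of 50 genes of matrix and adhesion 42 were measured, with 13 higher, 7 lower and a median of 0.21, beside 11.3% higher and 9.48% lower of all genes. At 6 h 8 were higher and 2 lower, beside 11% and 7.07% of all genes. Col1a1 and Col1a2, the bulk of fibroblast matrix, had 0.01 ± 0.06 and 0.01 ± 0.07, and the fibronectin gene Fn1 had -0.22 ± 0.15. Lama4, a laminin chain of basement membranes, had 10.97, 10.98 and 11.01 at 0 h and 13.01, 12.56 and 12.66 at 48 h (1.76 ± 0.10, adjusted p = 3.16e-11). Lum, the collagen-binding proteoglycan lumican, had 12.72, 11.25 and 11.72 at 0 h and 13.54, 13.17 and 13.08 at 48 h (1.37 ± 0.16, adjusted p = 1.29e-06). Both were higher at 48 h on every array.

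Col3a1, the type III collagen chain, had 13.49, 12.60 and 12.62 at 0 h and 14.15, 14.28 and 14.16 at 48 h (1.29 ± 0.13, adjusted p = 2.59e-07), and its other probe sets gave 2.69 and 0.97. Col18a1, Fbln1 and Dcn, a basement membrane collagen, fibulin 1 and decorin, rose by 1.52 ± 0.26, 1.01 ± 0.12 and 0.91 ± 0.14. The other Fbln1 probe sets gave 0.02 (adjusted p = 0.933) and 1.91. On the other side, Lox, the enzyme that crosslinks collagen, had 13.16, 13.23 and 13.23 at 0 h and 12.66, 12.28 and 12.35 at 48 h (-0.78 ± 0.13, adjusted p = 1.03e-04), with -0.46 (adjusted p = 0.474) in a dimmer probe set. Col4a2, a type IV collagen chain, fell by 0.58 ± 0.11 (adjusted p = 5.42e-04). Col11a1 (-1.15) and Ogn (-0.94) were called lower but did not pass without experiment 3 (adjusted p = 0.0939 and 0.0958), nor Ogn without experiment 1 (-0.61, 0.091).

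Of 13 matricellular genes measured, out of 25, the fallers were Tnc and Tgfbi, which encodes an integrin-binding protein and had 8.89, 9.01 and 9.29 at 0 h and 7.05, 7.54 and 6.68 at 48 h (-1.97 ± 0.30, adjusted p = 3.22e-05). Thbs2, thrombospondin 2, was higher by 1.07 ± 0.22 (adjusted p = 0.00116), though not without the experiment term (adjusted p = 0.316). The periostin gene Postn was higher by 0.84, but by 0.45 (adjusted p = 0.148) without experiment 2, by 0.80 (0.0927) without experiment 3 and by 1.27 without experiment 1. Lgals3 and Matn2 were higher by 0.62 and 0.61, with overlapping arrays and no call without the experiment term (adjusted p = 0.298 and 0.39).

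Of the proteases of the matrix and their inhibitors 16 of 28 were measured, with 4 higher and 4 lower, beside 11.3% and 9.48% of all genes. F3, tissue factor, the starter of clotting, had 7.85, 8.91 and 8.59 at 0 h and 10.55, 10.41 and 10.00 at 48 h (1.88 ± 0.22, adjusted p = 1.84e-06). Mmp14, a membrane-bound matrix metalloproteinase, had 11.68, 11.24 and 11.61 at 0 h and 12.31, 12.45 and 12.52 at 48 h (0.91 ± 0.10, adjusted p = 7.00e-07), and the secreted Mmp11 rose by 1.40 ± 0.22 (adjusted p = 7.26e-05). All 3 were above their 0 h arrays in each experiment. Timp1, an inhibitor of these enzymes, had 12.69, 12.61 and 12.57 at 0 h and 11.91, 11.73 and 12.32 at 48 h (-0.64 ± 0.11, adjusted p = 1.57e-04). Mmp9, another secreted metalloproteinase, was called lower (-0.80 ± 0.22, adjusted p = 0.0127), but not without experiment 1 (-0.52, 0.17), without experiment 3 (0.12) or without the experiment term (0.148).

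Genes of G2 and mitosis were lower nearly as a whole. Of 49 genes 35 were measured, and all 35 differences were below 0, with a median of -1.29. Of the 35, 30, or 85.7%, were called lower, beside 9.48% of all genes. The fall came after 6 h, when 1 gene was lower and the median was -0.01, and the medians were -0.32 at 12 h, -1.38 at 18 h and between -1.37 and -1.17 from 24 h on. In the comparison of 48 h with 6 h, 28 of the 35 were lower, beside 8.59% of all genes. Cks1b, a partner of cyclin-dependent kinases, was the list's gene that came back, with -0.11 ± 0.11 at 48 h, though its first-day fall did not pass without experiment 2 (adjusted p = 0.058) or without the experiment term (0.113). The median by experiment was -0.98, -0.91 and -1.81. The count leaned on the pairing: 8 genes were lower without the experiment term, and 25, 23 and 15 with experiment 1, 2 or 3 left out.

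Plk4, the kinase that starts centriole duplication, had 8.31, 9.73 and 9.87 at 0 h and 6.90, 8.25 and 7.82 at 48 h (-1.65 ± 0.20, adjusted p = 2.88e-06). Top2a, the topoisomerase that untangles chromosomes, had 10.55, 10.38 and 10.34 at 0 h and 9.71, 9.39 and 9.49 at 48 h (-0.89 ± 0.14, adjusted p = 6.55e-05). These 2 had no overlap between the groups, and their calls held without the experiment term. Cdk1, the kinase that drives entry into mitosis, had 9.96, 10.89 and 10.81 at 0 h and 8.78, 9.98 and 8.19 at 48 h (-1.57 ± 0.25, adjusted p = 8.44e-05), and -1.04 without experiment 3. Experiment 2 at 48 h lay above experiment 1 at 0 h, so that the fall shows within experiments and less across them. Cdc20, the activator of the anaphase-promoting complex, fell by 1.99 ± 0.32 (adjusted p = 6.72e-05, 0.0986 without the experiment term).

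The 3 mitotic genes among the largest falls of all were Kif20a, a kinesin of cytokinesis, Prc1, which bundles the spindle midzone, and Nusap1, a spindle protein. Kif20a had 8.24, 9.21 and 8.55 at 0 h and 4.83, 7.89 and 4.96 at 48 h (-2.78 ± 0.54, adjusted p = 5.70e-04). Prc1 had 8.28, 9.82 and 9.90 at 0 h and 5.16, 9.0 and 5.60 at 48 h (-2.75 ± 0.56, adjusted p = 9.40e-04). In both, experiment 2 kept much of its level at 48 h while experiments 1 and 3 dropped under the filter's lowest mean. Nusap1 had -2.50 ± 0.60 (adjusted p = 0.00395), and -1.40 (adjusted p = 0.108) without experiment 3. Without the experiment term none of these 3 passed (adjusted p = 0.06 for Kif20a, 0.0935 for Prc1 and 0.0955 for Nusap1).

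S phase and replication genes followed with smaller differences. Of 50 genes 36 were measured, 33 differences were below 0, and 22 were called lower, beside 9.48% of all genes. The median was -0.59, after -0.21 and 5 lower genes at 6 h, beside 7.07% of all genes at that time. Calls fell to 6 without the experiment term, and leaving out experiments 1, 2 or 3 gave 17, 12 and 7. Rrm1, the large subunit of ribonucleotide reductase, had 9.31, 9.86 and 9.87 at 0 h and 8.30, 8.61 and 8.31 at 48 h (-1.27 ± 0.17, adjusted p = 9.27e-06). Pcna, the sliding clamp of replication, had 10.65, 10.53 and 10.37 at 0 h and 9.23, 9.94 and 9.20 at 48 h (-1.06 ± 0.17, adjusted p = 9.16e-05), and was down by 1.36 at 6 h already. Both kept the groups apart. Mcm5, a subunit of the replicative helicase, fell by 1.80 ± 0.29 (adjusted p = 6.69e-05) with overlapping arrays and did not pass without the experiment term (adjusted p = 0.131). Slbp, which binds histone mRNA, fell by 0.88 ± 0.16 (adjusted p = 2.78e-04).

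Among cyclins D, CDK inhibitors and growth arrest genes, 28 of 46 were measured, with 8 higher, 6 lower and a median of -0.06. The FoxO factor Foxo3 had 9.57, 9.67 and 9.92 at 0 h and 10.68, 10.56 and 10.86 at 48 h (0.98 ± 0.14, adjusted p = 1.89e-05). Bcl2l11, the death-promoting BIM, rose by 0.88 ± 0.13, and the stress protein gene Sesn1 by 0.69 ± 0.13. These 3 had risen by 0.87, 1.06 and 1.00 at 6 h and were still up, though a second Bcl2l11 probe set gave 0.29 (adjusted p = 0.509) at 48 h. Gas2, named for its rise in growth arrest, went down instead, from 11.87, 11.82 and 11.78 to 10.27, 10.29 and 10.34 (-1.52 ± 0.13, adjusted p = 1.69e-08). Gadd45g, a relative of Gadd45b, had 9.17, 8.98 and 8.60 at 0 h and 5.70, 7.23 and 6.97 at 48 h (-2.28 ± 0.36, adjusted p = 5.92e-05). Its 48 h mean was under 6.77, so its fold is open to background. The CDK inhibitor Cdkn2c fell by 0.76 ± 0.10. Ccnd1, cyclin D1, fell at 6 h (-0.73, adjusted p = 0.0208) and was higher at 48 h (0.91 ± 0.21, adjusted p = 0.00339), with overlapping arrays and no call without the experiment term (adjusted p = 0.139) or in a dimmer probe set (0.50, adjusted p = 0.165).

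**Figure D3:**
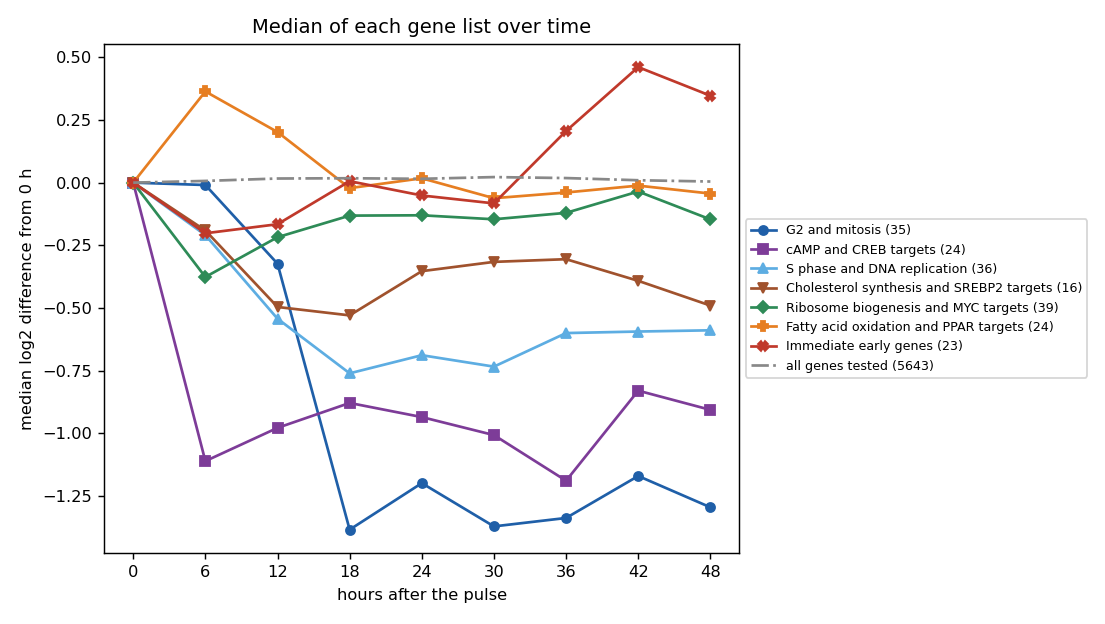
Median log2 difference from 0 h over the measured genes of 7 lists and over all genes (grey), against hours after the pulse, with the number of genes in brackets. The CREB targets are low from 6 h on, the G2 and mitosis list falls between 12 h and 18 h and stays low, and the ribosome biogenesis list starts at -0.38 and ends at -0.15.

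Of 47 ribosome biogenesis genes and MYC targets 39 were measured. At 6 h 15 were lower and 1 was higher, beside 7.07% and 11% of all genes, with a median of -0.38. At 48 h 3 were lower and 1 higher, or 10.3% called beside 20.8% of all genes, with a median of -0.15. In the comparison of 48 h with 6 h, 12 of the 39 were higher, beside 7.21% of all genes. Nop56, Nme1, Ldha (lactate dehydrogenase A, a MYC target) and Ddx21, an RNA helicase of the nucleolus, were the 4 that met the rule for coming back. Ddx21 had 10.36, 9.39 and 9.22 at 0 h and 9.73, 9.11 and 9.66 at 48 h (-0.16 ± 0.19), after -1.18 at 6 h, and Ldha had 13.13, 13.19 and 13.07 at 0 h and 12.52, 13.36 and 12.73 at 48 h (-0.26 ± 0.15), after -0.79. The 0 h and 48 h arrays overlapped in both. None of the 4 met the rule without the experiment term or with experiment 2 or 3 left out, where fewer calls were made. The dimmer Nme1 probe set given above did not show the first-day fall. Bop1 (-0.71), Nhp2 (-0.64) and the transport GTPase Ran (-0.53 ± 0.10, adjusted p = 3.51e-04) were still lower, and none of these 3 passed without the experiment term (adjusted p = 0.146 for Bop1, 0.128 for Nhp2 and 0.0705 for Ran). Bop1 did not pass without experiment 1 (-0.42, 0.13) or 2 (0.0846) either, nor Nhp2 without experiment 1 (0.0611). Cytosolic ribosomal proteins, 23 measured of 74, gave 2 higher and 1 lower with a median of -0.05, which was 0.02 with the values as deposited and 0.01 with arrays centred on their medians, so they show no direction that holds.

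The unfolded protein response, which raises chaperones of the endoplasmic reticulum, had 34 of 42 genes measured together with ATF4 targets, with 10 lower and 1 higher at 6 h and 6 lower and 5 higher at 48 h. Without the experiment term limma called 0 of the 34, where 7 were lower and 3 higher at an unadjusted p below 0.05. With experiments 1, 2 or 3 left out the calls were 6, 5 and 3 lower and 6, 2 and 2 higher. Manf, Dnajb11, Hspa5 and Nars met the rule for coming back. Hspa5, the chaperone BiP, had 12.37, 11.85 and 11.77 at 0 h and 12.65, 11.92 and 11.80 at 48 h (0.13 ± 0.12), after -0.85 at 6 h. Its arrays overlapped at 0 h and 48 h. Of the ATF4 targets that are amino acid and folate enzymes, Psat1, of serine synthesis, was lower by -1.09 (adjusted p = 5.97e-04), Asns, asparagine synthetase, by -0.79 (adjusted p = 1.66e-05) and the mitochondrial folate enzyme Mthfd2 by -0.76 (adjusted p = 4.79e-04). Nupr1, a stress factor, was higher by 0.99 (adjusted p = 1.70e-04). None of these 4 passed without the experiment term (adjusted p from 0.104 to 0.198), and the fall of Psat1 was -0.70 without experiment 3. The returns of Dnajb11 and Hspa5 rested on first-day falls that did not pass without that term (adjusted p = 0.188 and 0.134), nor did that of Nars (0.0669).

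Of 36 heat shock and chaperone genes 28 were measured, with 6 lower and 3 higher and a median of -0.08, after 7 lower and -0.36 at 6 h. In the comparison of 48 h with 6 h, 6 of the 28 were higher and 1 lower, beside 7.21% and 8.59% of all genes. Hsph1, an HSP110 chaperone, had 11.97, 11.93 and 11.71 at 0 h and 10.43, 10.19 and 10.02 at 48 h (-1.66 ± 0.23, adjusted p = 1.02e-05), after -2.43 at 6 h. Bag3, a cochaperone of HSP70, had 12.12, 10.82 and 11.16 at 0 h and 9.85, 9.67 and 10.28 at 48 h (-1.43 ± 0.19, adjusted p = 8.08e-06). Both lay apart by group. Dnajb4 and St13, cochaperones too, fell by 1.50 ± 0.27 and 1.12 ± 0.20. Hspa4 was called higher by 0.59, but its other probe sets gave -0.79, -0.74 and -0.65, so its direction is not settled.

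Redox genes under NRF2, 34 measured of 41, were lower in 8 and higher in 2, with a median of -0.13, beside 9.48% and 11.3% of all genes. Txnrd1, thioredoxin reductase, had 11.01, 10.66 and 10.70 at 0 h and 9.94, 9.89 and 9.98 at 48 h (-0.85 ± 0.17, adjusted p = 8.44e-04), and Txn1, thioredoxin, had 13.79, 13.82 and 13.79 at 0 h and 13.12, 13.43 and 12.87 at 48 h (-0.66 ± 0.08, adjusted p = 3.70e-06). Both were lower on every 48 h array. Prdx4, a peroxiredoxin of the secretory pathway, went up, from 12.15, 10.79 and 11.20 to 12.92, 12.47 and 12.70 (1.32 ± 0.15, adjusted p = 7.00e-07), and Mt2, a metallothionein, rose by 0.69 ± 0.12 (adjusted p = 2.71e-04). Nqo1, a quinone reductase, was lower by -1.81 (adjusted p = 0.00994) but by -0.80 (adjusted p = 0.179) without experiment 1, and did not pass without experiment 3 (0.0598).

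Of 21 genes of triglyceride and fatty acid synthesis measured, out of 32, 6 were lower and 1 higher, with a median of -0.32. Next to Dgat1, Acsl4, which activates polyunsaturated fatty acids, had 10.75, 9.59 and 9.56 at 0 h and 7.67, 8.55 and 8.41 at 48 h (-1.75 ± 0.25, adjusted p = 1.71e-05), and -1.09 (adjusted p = 0.00138) without experiment 1. Acsl5 fell by 0.86 ± 0.16, and Scd1, the fatty acid desaturase, was lower by -0.83 ± 0.14, the latter not without the experiment term (adjusted p = 0.146). Of 16 cholesterol synthesis genes measured, out of 28, 8 were lower, with a median of -0.49 and a median of -1.04 in experiment 1, -0.26 in experiment 2 and -0.40 in experiment 3. Hsd17b7, of cholesterol synthesis, was lower by -1.64 ± 0.35 (adjusted p = 0.00148) and by -0.96 (0.0269) without experiment 1, and Mvd, a mevalonate pathway enzyme, by -1.33 ± 0.22 (adjusted p = 8.41e-05) and by -0.83 (0.00319) without it. The 48 h arrays of experiment 1 were thus the lowest for this pathway. Without the experiment term 1 of the 16 was lower, and with experiment 3 left out 2 were.

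Of 40 fatty acid oxidation genes and PPAR targets 24 were measured: 9 were higher at 6 h, beside 11% of all genes, with a median of 0.36. At 48 h 3 were higher and 1 lower, or 16.7% called beside 20.8% of all genes, with a median of -0.04. In the comparison of 48 h with 6 h, 9 of the 24 were lower, beside 8.59% of all genes. Acaa2, a thiolase of mitochondrial fatty acid oxidation, had 10.77, 11.08 and 10.98 at 0 h and 10.94, 11.20 and 11.16 at 48 h (0.16 ± 0.11), after 0.70 at 6 h, and met the rule. Angptl4 stayed up, as given above. Acadm, a dehydrogenase of the same pathway, was higher by 0.59 (adjusted p = 0.0249) but by 0.37 (adjusted p = 0.29) without experiment 2, and did not pass without experiment 1 (0.0794).

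Of glycolysis and hypoxia genes 24 of 39 were measured, with 5 higher, 3 lower and a median of 0.03, and 5 met the rule for coming back (Hk2, Ldha, Pgam1, Higd1a and Pfkm). Pgam1, a phosphoglycerate mutase, had 0.02 ± 0.15 after -0.61 at 6 h, and Pfkm, a phosphofructokinase, 0.18 ± 0.11 after 0.84. The return of Higd1a did not hold with any experiment left out. Pkm, pyruvate kinase, went from 13.05, 14.01 and 14.31 to 12.51, 13.44 and 13.28 (-0.72 ± 0.10, adjusted p = 9.48e-06), lower in each experiment but overlapping across them, and did not pass without the experiment term (adjusted p = 0.262). A dimmer Pkm probe set had -0.43 and was not called either. Bnip3, a mitophagy receptor induced in hypoxia, was higher by 1.03 but by 0.62 (adjusted p = 0.173) without experiment 2.

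Oxidative phosphorylation, with 52 of 68 genes measured, had 8 lower, 1 higher and a median of -0.15, and the proteasome, with 34 of 37 measured, had 7 lower and a median of -0.17. In either direction that is 17.3% and 20.6% of their genes called, beside 20.8% of all genes. Most of these calls were lower, where the share of all genes was 9.48%. Differences below 0 made up 38 of the 52 and 28 of the 34, beside 2786 of all 5643 genes. Without the experiment term 2 and 1 genes were lower. Ndufb8, a subunit of complex I, fell by 0.60 ± 0.11, and Atp5d, of the ATP synthase, was lower by -0.94 and by -0.53 without experiment 1, with 0.06 (adjusted p = 0.871) in 1 of its other probe sets. In the lysosome and autophagy list 44 of 57 were measured, with 4 higher and 4 lower, or 18.2% called. Ctsd, cathepsin D, had 12.60, 12.41 and 11.94 at 0 h and 13.17, 12.79 and 12.86 at 48 h (0.62 ± 0.10, adjusted p = 1.27e-04), while the related protease Ctsl was lower by -0.88, though not without the experiment term (adjusted p = 0.116).

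Receptors and ligands of growth factors were more often higher than lower. Of 53 genes 27 were measured, with 11 higher and 4 lower, beside 11.3% and 9.48% of all genes. The median was 0.39, with 0.43, 0.43 and 0.50 by experiment. Kitl, the ligand of the receptor Kit, had 10.16, 9.45 and 10.19 at 0 h and 11.39, 10.80 and 11.22 at 48 h (1.20 ± 0.17, adjusted p = 1.50e-05). Igf1r, the insulin-like growth factor 1 receptor, had 8.71, 8.70 and 9.58 at 0 h and 9.73, 10.28 and 10.43 at 48 h (1.15 ± 0.19, adjusted p = 8.59e-05). In both the 48 h arrays were the higher ones. Ghr, the growth hormone receptor, rose by 1.04 ± 0.11 (adjusted p = 2.59e-07) and was up by the same amount at 6 h. Igf2, a growth factor that binds Igf1r, had 14.26, 13.43 and 13.89 at 0 h and 14.84, 14.76 and 14.94 at 48 h (0.99 ± 0.11, adjusted p = 1.03e-06), and Igf2r, the receptor that clears it, rose by 0.65 ± 0.09. Pdgfra, a receptor for platelet-derived growth factor, rose by 0.75 ± 0.09 (adjusted p = 2.88e-06), with a dimmer probe set at -0.28. With experiments 1, 2 or 3 left out the list gave 10, 8 and 6 higher and 4, 1 and 1 lower genes.

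In the list of TGF-beta, BMP and Id genes 32 of 45 were measured. Of these, 9 were higher and 2 lower, beside 11.3% and 9.48% of all genes, with a median of 0.26. Id2, which blocks basic helix-loop-helix factors, had 10.44, 8.94 and 9.05 at 0 h and 8.18, 7.80 and 7.81 at 48 h (-1.54 ± 0.22, adjusted p = 1.45e-05), and Tsc22d1 fell by 0.98 ± 0.21. No 48 h array of Id2 reached a 0 h array. Bmp1, a protease that trims procollagen, rose by 0.84 ± 0.15 (adjusted p = 2.29e-04), while its other probe set gave 0.17 (adjusted p = 0.457). Fst, follistatin, was higher by 1.37 but by 0.67 (adjusted p = 0.285) without experiment 2, and did not pass without experiment 3 (0.0925).

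Interferon-induced genes, 25 measured of 53, had 7 higher and 3 lower, with a median of 0.19, beside 11.3% and 9.48% of all genes. At 6 h 8 were higher, beside 11% of all genes. The count of lower genes at 48 h was 1 without experiment 1 and 1 without experiment 2. Without experiment 3, and without the experiment term, limma called 0 genes of the list lower, with 2 at an unadjusted p below 0.05 in each. Gbp2, a guanylate-binding protein, had 7.94, 8.32 and 8.40 at 0 h and 8.97, 8.98 and 9.17 at 48 h (0.82 ± 0.16, adjusted p = 5.74e-04), down from 1.81 at 6 h. It was therefore partly back and still away. Ly6e rose by 0.79 ± 0.10 (adjusted p = 5.41e-06), with 0.29 (adjusted p = 0.59) in a dimmer probe set. Ifit2 was higher by 1.75 but by 1.11 (adjusted p = 0.0749) without experiment 1.

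Of cytokines, chemokines and their regulators 28 of 56 were measured, with 10 lower, 6 higher and a median of -0.08, beside 9.48% lower and 11.3% higher of all genes. At 6 h 4 were lower, beside 7.07% of all genes. Ccl2, which attracts monocytes, had 8.31, 8.19 and 7.64 at 0 h and 9.24, 10.57 and 9.49 at 48 h (1.72 ± 0.27, adjusted p = 4.70e-05), with no overlap, yet it did not pass without the experiment term (adjusted p = 0.122). Csf1, the macrophage growth factor, rose by 0.88 ± 0.13 and Cxcl12, a homing chemokine, by 0.66 ± 0.14. Cx3cl1, fractalkine, had 11.44, 10.93 and 10.77 at 0 h and 10.01, 9.64 and 9.93 at 48 h (-1.19 ± 0.17, adjusted p = 2.14e-05). The inhibitors of cytokine signalling Socs3 and Socs2 fell by 1.36 ± 0.32 and 1.24 ± 0.25. Ccl7 had 0.27 ± 0.26 at 48 h after -0.77 at 6 h, and met the rule for coming back, but its first-day difference was -0.37 (adjusted p = 0.215) without experiment 1 and did not pass without experiment 2 (0.0779). The list gave 3 higher and 6 lower genes without the experiment term.

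**Figure D4:**
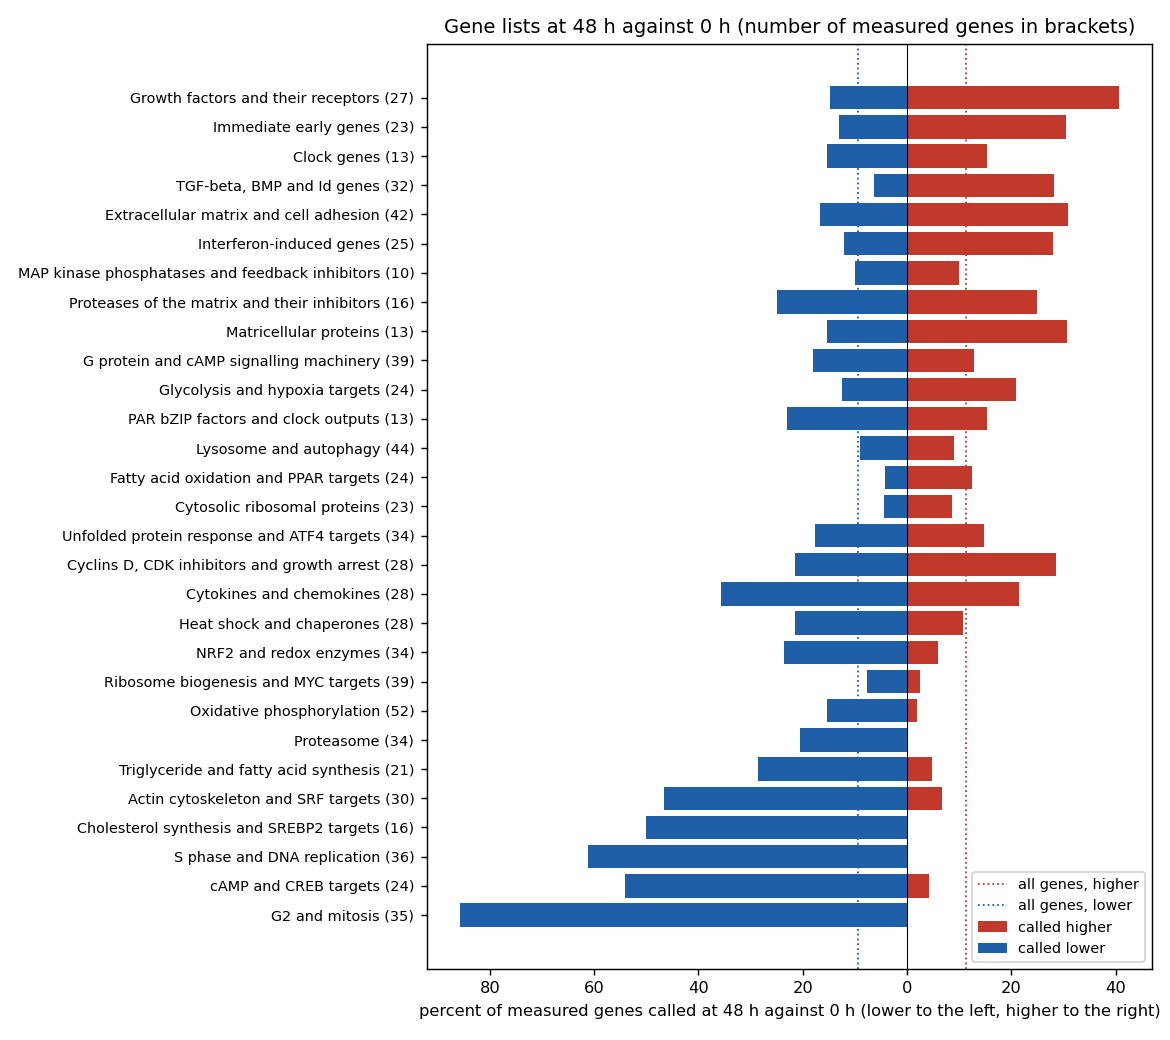
Percent of the measured genes of each list called lower (blue, to the left) and higher (red, to the right) at 48 h against 0 h, in order of the list's median difference, with dotted lines at the 9.48% and 11.3% of all genes. The G2 and mitosis, S phase and CREB target bars reach furthest left, and the immediate early and growth factor bars are among the longest to the right.

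Other list counts also leaned on the experiment term. Without it 9 matrix and adhesion genes were higher and 4 lower, and 6 growth factor genes were higher and 3 lower. Of the TGF-beta, BMP and Id genes 4 were then higher. The NRF2 list had 4 lower genes, the triglyceride list 3 and the heat shock list 4. The matrix proteases and inhibitors had 3 higher and 1 lower, the glycolysis and hypoxia list 3 higher, and the growth arrest list 5 higher and 4 lower.

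The clock genes, whose transcripts cycle over about a day in synchronized fibroblasts, were sampled here 2 days apart. Their period and phase were not estimated, and any early response to forskolin is part of the 0 h values. Whether 0 h and 48 h share a phase was therefore not tested. Of 21 genes 13 were measured, with 2 higher, 2 lower and a median of 0.34. Rora, a nuclear receptor that activates Arntl, had 8.09, 7.59 and 7.80 at 0 h and 9.66, 9.16 and 8.80 at 48 h (1.38 ± 0.13, adjusted p = 7.53e-08), with no overlap. Cry1, a repressor of the clock, had 9.93, 9.72 and 9.44 at 0 h and 8.51, 9.45 and 9.06 at 48 h (-0.69 ± 0.22, adjusted p = 0.0295), and -0.32 (adjusted p = 0.33) without experiment 1, which held most of the fall. It did not pass without experiment 3 either (0.0759). The casein kinases Csnk1d (-0.58 ± 0.08) and Csnk1e (0.54) were called but not without the experiment term (adjusted p = 0.176 and 0.503), Csnk1e did not pass without experiment 2 or 3 (0.0792 and 0.232), and the 3 other Csnk1d probe sets, none of them called, gave 0.24, 0.09 and -1.20.

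The other 9 clock genes did not pass, and their 95% intervals were wide. Arntl, the partner of Clock in the activator of the clock, had -0.08 with an interval from -0.69 to 0.52, and Clock had 0.13 from -0.27 to 0.52. Per1 had 0.57 from -0.03 to 1.18, Cry2 0.34 from -0.10 to 0.79, Nr1d1, the repressor REV-ERB alpha, 0.42 from -0.18 to 1.02, and Bhlhe40 -0.21 from -1.16 to 0.75. Timeless had -0.08. For Per3 (0.96 ± 0.37, adjusted p = 0.0715) and Nr1d2 (1.29, adjusted p = 0.119) the call turned on the arrays in the fit: with the 6 arrays of 0 h and 48 h alone the adjusted p was 0.00763 and 0.0161. Of PAR bZIP factors and clock outputs, 13 of 23 were measured. Dbp, a factor driven by the clock, had 7.18, 4.74 and 6.31 at 0 h and 8.93, 7.18 and 7.55 at 48 h (1.81 ± 0.64, adjusted p = 0.047), with a 0 h mean under the filter's lowest mean, and did not pass without experiment 2 or 3 (adjusted p = 0.115 and 0.187) or without the experiment term (0.335). Usp2, a deubiquitinase, fell by 1.45 ± 0.31 (adjusted p = 0.00167), or by 0.76 without experiment 1, and Klf13, Pnp and Nfil3, given above, belong to this list too.

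Among the 239 genes called at 48 h but at no time of the first day, 118 were above and 121 below the pulse state. Nfib, a nuclear factor I protein like Nfia, had 10.91, 9.99 and 10.66 at 0 h and 11.64, 11.63 and 12.07 at 48 h (1.26 ± 0.18, adjusted p = 1.60e-05), and its other probe set gave 0.99 (adjusted p = 0.00061). Ifi202b, an interferon-induced DNA sensor, had 8.66, 8.0 and 7.80 at 0 h and 9.81, 9.24 and 9.72 at 48 h (1.44 ± 0.23, adjusted p = 8.59e-05). Both had all 48 h arrays above all 0 h arrays and kept their call with each experiment left out. The others with the largest changes were higher for Lactb2 (1.24), Pafah2 (1.10) and Acvr1 (1.07), and lower for Adgrg1 (-1.58), Calb2 (-1.42), Eya3 (-1.38), Nkx2-5 (-1.37) and Hgf (-1.20 ± 0.26), the hepatocyte growth factor. Each of these 8 lost its call with at least 1 experiment left out, from adjusted p = 0.0528 for Hgf without experiment 2 to 0.371 for Pafah2 without experiment 3. Missing the threshold on the first day does not show that a gene had not moved then: Pafah2 had a difference of 0.78 at 6 h.

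The 5 genes that had left on the first day by the rule and were called on the other side of the pulse state at 48 h were picked out after their values were seen. Tmem176a, a membrane protein related to the MS4A family, rose by 0.76 at 6 h (adjusted p = 0.00707) and fell under its pulse level at 48 h, from 8.66, 9.52 and 9.45 to 7.92, 8.0 and 7.88 (-1.28 ± 0.19, adjusted p = 3.08e-05). All its 48 h arrays were under all 0 h arrays, and the call held with each experiment left out. Its neighbour in the family, Tmem176b, had 0.43 at 6 h and -0.37 at 48 h, with 10.59, 10.53 and 10.71 at 0 h and 10.22, 10.13 and 10.36 at 48 h. Adam23 (0.43 and -0.40) and Capg (0.68 and -0.36), an actin-capping protein, went the same way, and Xbp1, a factor of the unfolded protein response, went the other way (-0.40 and 0.31). These last 4 genes were not called without experiment 2 (adjusted p = 0.101 for Tmem176b, 0.139 for Adam23, 0.281 for Capg and 0.26 for Xbp1) or without the experiment term. Capg, Tmem176b and Xbp1 also lost it without experiment 3, and Adam23 without experiment 1 (-0.26, 0.26).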

How the data were processed

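Total RNA of NIH/3T3 cultures was measured on Affymetrix mouse U74v2 arrays, 27 in all. The deposited table holds linear intensities of 12488 probe sets, which the authors had scaled to a common level (trimmed means of 500.28 to 500.35 per array, leaving out 2% at each end). The algorithm behind the intensities was not given in the sources used here. Without detection calls, dim signal and background could not be separated. Precision is limited by the number of arrays.

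Intensities were taken as log2(intensity + 12.1), with the 10th percentile of all values as the pseudocount, which understates changes of dim genes, and quantile normalized. The 66 controls and probe sets under the 40th percentile of mean log2 value over all arrays (6.767) were left out, which kept 7453. Symbols came from the platform annotation: 10855 probe sets had 1 symbol, 396 several and 1193 none, and 10839 matched the mouse RefSeq table (GRCm38.p6). Each of 5643 genes was represented by its brightest probe set. Limma 3.58.1 in R 4.3.3 fitted 9 time means and the experiment to all 27 arrays (16 residual degrees of freedom), with eBayes following the intensity trend and p-values adjusted by Benjamini and Hochberg. The code was tested on simulated data.

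The experiment numbers paired the arrays: within an experiment, each of the 36 pairs of arrays deviated together from the time means, with r across probe sets from 0.426 to 0.642, 0.349 to 0.599 and 0.135 to 0.482 in experiments 1, 2 and 3. The experiment term takes out the mean level of each experiment. The p-values therefore rest on the scatter left after it, which is how far the time course differed between experiments. That scatter was pooled over all time points and moderated by eBayes.

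The comparison, the gene lists and the classes were chosen with earlier results of these data known. Genes were named by a rule: the 15 largest rises and falls with 1 sign in all 3 experiments, the 10 largest first-day differences in each direction among genes that came back, the 5 largest in each direction among genes called at 48 h only, up to 4 called members of each list and every measured clock gene. Other list members, and the genes that had left by the rule and were called on the other side at 48 h, were named after their values were seen. Alternatives changed the scaling, pseudocount, filter, variance model, array weights, block, arrays and experiments.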

Additional observations from a re-analysis of the deposited data

How the results depend on the processing

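The main counts, over probe sets, were 799 higher and 676 lower at 48 h, 140 that came back and 316 called at 48 h only. They rest on the pairing by experiment: without the replicate block they were 348 higher, 241 lower, 18 back and 156 at 48 h only. With the 6 arrays of 0 h and 48 h alone, which leave fewer degrees of freedom, 440 were higher and 378 lower. Leaving out 1 experiment in turn gave 431 to 677 higher, 321 to 550 lower, 4 to 102 back and 175 to 333 at 48 h only. Under the other scalings, pseudocounts, filters, variance models and array weights, and without the 18 h and 30 h arrays of experiment 1, the counts stayed within 1.5 times of the main ones, and no named gene with a call changed direction in any setting run. Of the probe sets that came back, 17 did so without the block too, and 62, 26 and 2 without experiments 1, 2 and 3. Of the 316 called at 48 h only, 55 stayed in that class without the block, and 123, 75 and 69 without experiments 1, 2 and 3. Single genes in these 2 classes are therefore not firm. Of the named values, 169 lost their call without the block, 94 with the 6 arrays alone, and 70, 104 and 134 without experiments 1, 2 and 3. Other settings took the call from fewer: 31 with no filter, 24 without the intensity trend and 11 with arrays centred on their medians. With array weights 8 lost it, with the scaling as deposited 7, and with each of the rest 4 or fewer. Signal over background limits the dimmest genes, and 3 experiments limit the rest.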
